A study of Mus musculus with 12 samples.

Results

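The 40 genes described here act in the cell cycle and mark proliferating cells, and were taken by symbol from the RNA sequencing counts of whole thoracic aorta of 12 mice. All 40 were listed among the 25284 genes of the count table, and all 40 passed the filter on low counts that left 15857 genes in the comparison of the 12 mice. They were grouped into 7 roles, from DNA replication to mitotic exit. The study treated male ApoE-/- mice, which lack apolipoprotein E and develop atherosclerosis on high fat diet, with AZ6983, an agonist of the alpha 7 nicotinic acetylcholine receptor, and asked which transcripts changed in the aorta. The AZ6983 group (A1 to A6, n = 6) received 50 µmol per kg body weight per day for 8 weeks through osmotic minipumps under the skin, and the control group (C1 to C6, n = 6) received the cyclodextrin vehicle the same way. Both groups carried the same ApoE deletion on a C57BL/6 background, received the same diet and were 18 weeks old. The aortas came from mice with no gene reporter or cell sorting, so a gene's level is summed over all cells of the vessel and the tissue dissected with it, and fewer cells of a type and less RNA per cell cannot be told apart.

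A dividing cell copies its DNA in S phase, separates the copies in mitosis and splits in cytokinesis, and many of the genes that it needs are transcribed only in the phase of their use. The E2F factors switch on the replication genes at the G1/S boundary, and the DREAM and MuvB complexes, with B-Myb and FoxM1, control the genes of G2 phase and mitosis. Most cells of an adult aorta are out of cycle, and the few cells in cycle include leukocytes and smooth muscle cells of atherosclerotic lesions. In the thymus, by contrast, immature T cells divide in large numbers.

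Each mouse had 23810036 to 35864666 counts on genes, and levels are given as CPM, the counts scaled to the TMM-normalised size of the library. The aortic markers were present in every library, with the summed CPM of 6 smooth muscle genes at 10225 to 17611 and that of 6 endothelial genes at 980 to 1289. The library of mouse A4 stood apart from the rest. Summed over 16 thymocyte genes it held 1504 CPM, against 16.1 to 82.0 in the other 11 mice, and all 13 of these genes that passed the filter were highest in A4. Rag1, a recombinase gene of developing lymphocytes, had 21669 counts in A4 and 4 to 570 elsewhere, and Psmb11, a proteasome gene of the thymic cortex epithelium, had 469 counts in A4 and 0 to 1 elsewhere. The 6 B cell genes did not stand out, with 11.4 CPM in A4 and 4.02 to 30.3 in the others. Each comparison below is therefore given for 12 mice and for 11 mice without A4. The share of the table's reads that fell on no gene was 10.1 ± 1.55% in control and 12.8 ± 1.36% in AZ6983 (SD, n = 6 and 6, two-sided exact permutation p = 0.0108, adjusted p = 0.13 over 12 library measures). With this share as a covariate the median log2 fold change of the 40 genes was 0.91 in 12 mice and −0.23 in 11, and none of the 40 passed 10% FDR in edgeR.

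Promoter sequences are shown for the most abundant gene (by mean CPM) with a RefSeq entry in each of the 4 roles that hold the most genes. RefSeq (GRCm38.p6) held an entry for 32 of the 40 genes, 33 promoters in all, as Prc1 had 2. Each sequence runs 5′ to 3′ from 250 bases before the start of the gene to 50 bases after it, with matches in capitals to the E2F motif TTTNNCGC, to both forms of the cell cycle genes homology region (CHR), TTTGAA and TTTAAA, and to the CCAAT box, on either strand. Forward and reverse E2F matches overlap in Mcm6, and TTTAAA reads the same on both strands.
Mcm6 (chr1:128359656-128359955, minus strand): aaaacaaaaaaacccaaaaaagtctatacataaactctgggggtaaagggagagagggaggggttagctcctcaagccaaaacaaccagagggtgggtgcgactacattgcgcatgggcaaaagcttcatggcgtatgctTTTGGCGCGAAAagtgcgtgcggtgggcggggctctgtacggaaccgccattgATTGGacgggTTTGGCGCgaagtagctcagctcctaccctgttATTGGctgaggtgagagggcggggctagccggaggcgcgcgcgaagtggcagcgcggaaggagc
Cdk1 (chr10:69352863-69353162, minus strand): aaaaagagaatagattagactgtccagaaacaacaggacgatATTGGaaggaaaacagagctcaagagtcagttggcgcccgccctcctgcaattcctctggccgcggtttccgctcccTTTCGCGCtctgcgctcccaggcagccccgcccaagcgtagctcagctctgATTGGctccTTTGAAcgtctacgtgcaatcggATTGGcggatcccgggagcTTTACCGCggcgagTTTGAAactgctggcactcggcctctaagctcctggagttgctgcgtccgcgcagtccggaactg
Cenpf (chr1:189688037-189688336, minus strand): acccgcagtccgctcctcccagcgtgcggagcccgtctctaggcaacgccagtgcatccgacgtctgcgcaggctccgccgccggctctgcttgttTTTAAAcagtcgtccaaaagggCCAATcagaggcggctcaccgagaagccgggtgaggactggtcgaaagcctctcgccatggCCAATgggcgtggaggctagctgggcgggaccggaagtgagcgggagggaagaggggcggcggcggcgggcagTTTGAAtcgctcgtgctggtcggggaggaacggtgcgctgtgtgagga
Kif11 (chr19:37376132-37376431, plus strand): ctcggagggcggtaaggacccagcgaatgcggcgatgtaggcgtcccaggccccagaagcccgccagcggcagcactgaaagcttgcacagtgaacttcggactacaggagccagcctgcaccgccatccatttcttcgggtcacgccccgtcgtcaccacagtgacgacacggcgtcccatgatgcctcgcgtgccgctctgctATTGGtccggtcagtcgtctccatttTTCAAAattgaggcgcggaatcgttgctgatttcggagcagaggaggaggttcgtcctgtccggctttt
The Mcm6 promoter held 3 E2F matches, 2 CCAAT boxes and no CHR. The Cdk1 promoter held 2 E2F matches, 2 CHRs and 3 CCAAT boxes, the Cenpf promoter 2 CHRs and 2 CCAAT boxes, and the Kif11 promoter 1 of each of these. Over the 33 promoters, 25 (75.8%) held a CHR in either form, against 27.6% of all 32851 mouse promoters of the same length. CCAAT was found in 26 (78.8%), against 37.4% of all, and the E2F motif in 6 (18.2%), against 5.17% of all. The E2F matches were in Cdc6, Mcm3, Mcm5, Mcm6, Tyms and Cdk1, so 5 of the 6 were among the 10 promoters of the replication role. A CHR was found in 5 of those 10, and in 18 of the 20 promoters of the 5 roles from G2/M kinases to chromosome structure. A match is only a run of letters and does not show that a factor binds there.

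Of all 15857 genes tested with 12 mice, 8314 were higher and 7543 lower in AZ6983 than in control. Of the 40 genes, 39 had a higher mean level in AZ6983 and 1, Mcm6, a lower one. The median log2 fold change was 0.81, against 0.009 over all genes tested, and it was 0.44 by limma-voom and 0.21 (35 higher, 5 lower) with sample quality weights. By edgeR's quasi-likelihood test none of the 40 reached 10% FDR, with Benjamini-Hochberg adjusted p of 0.46 to 0.938, and 0% of all genes did. At an unadjusted p under 0.05, 6 of the 40 were higher (E2f8, Foxm1, Plk1, Nusap1, Mki67 and Top2a) and 0 lower, where 7.38% of all genes tested were higher and 2.81% lower. DESeq2 and limma-voom also called 0 of the 40 at 10% FDR. Over all genes DESeq2 called 92 of 17592 by its defaults and 84 of 15857 on the filtered genes. Limma-voom called 0 of 15857, and 4 with sample quality weights. The DESeq2 defaults gave only 17 of the 40 an adjusted p.

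Without A4 the picture was different. Of the 15976 genes tested, 7889 were higher and 8087 lower in AZ6983, and of the 40 genes 11 were higher and 29 lower. The median log2 fold change of the 40 genes was −0.06, against −0.002 over all genes tested. By edgeR's quasi-likelihood test none reached 10% FDR (adjusted p of 0.555 to 0.994), as for 0% of all genes, and 0 of the 40 reached an unadjusted p under 0.05, where 7.04% of all genes were higher and 2.45% lower at that level. The groups overlapped for all 40 genes, against 0.651% of the genes tested whose groups were apart. The fold changes ran from −0.42 for Bub1 to 0.35 for Foxm1. The 95% intervals of all 40 included 0, their median half-width was 0.40 on the log2 scale against 1.08 with A4 included, and all 40 upper bounds lay under a doubling. A halving lay outside the interval for 39 of the 40, the exception being Bub1, whose lower bound was −1.09.

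**Figure D1:**
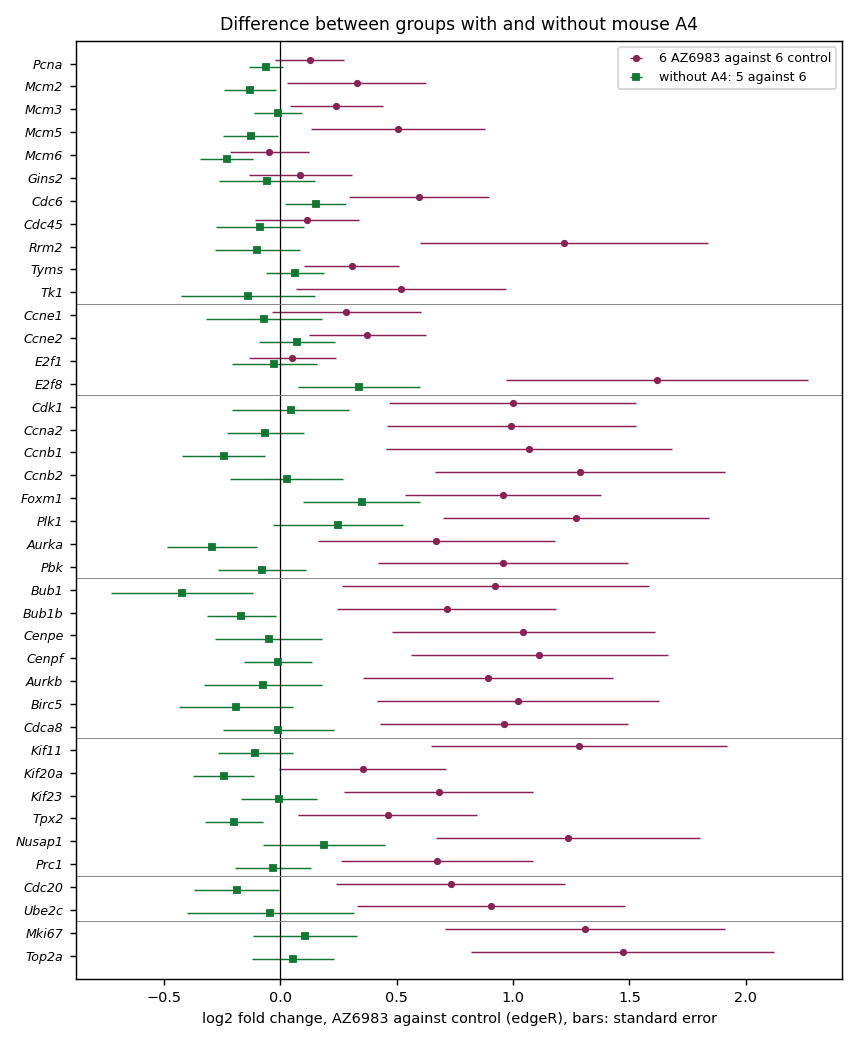
Log2 fold change of AZ6983 against control for each of the 40 genes (x axis, edgeR, bars are standard errors), with all 12 mice (circles) and without A4 (squares), ordered by role. With A4 the median was 0.81 and 39 genes lay above 0, and without A4 the median was −0.06 and 11 genes lay above 0.

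A4 was the highest of the 12 mice in 39 of the 40 genes, where it was the highest in 15.4% of all genes tested, and E2f1 was the exception, with C6 above it. Its level was over 2 times the median of the other 5 AZ6983 mice in 36 of the 40 genes, against 4.6% of all genes tested. It was over 5 times that median in 23 of the 40, and in 261 of all 15857 genes tested. The median ratio was 6.18 for the 40 genes and 0.998 for all genes tested. Summed over the 40 genes, A4 held 833 CPM, and the other 11 mice held 163 to 219 CPM. The controls summed to 198, 219, 171, 192, 204 and 203 CPM (C1 to C6), and the other AZ6983 mice to 192, 209, 190, 163 and 190 CPM (A1, A2, A3, A5 and A6). The sum thus stood apart in 1 mouse, and the controls and the other AZ6983 mice overlapped.

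**Figure D2:**
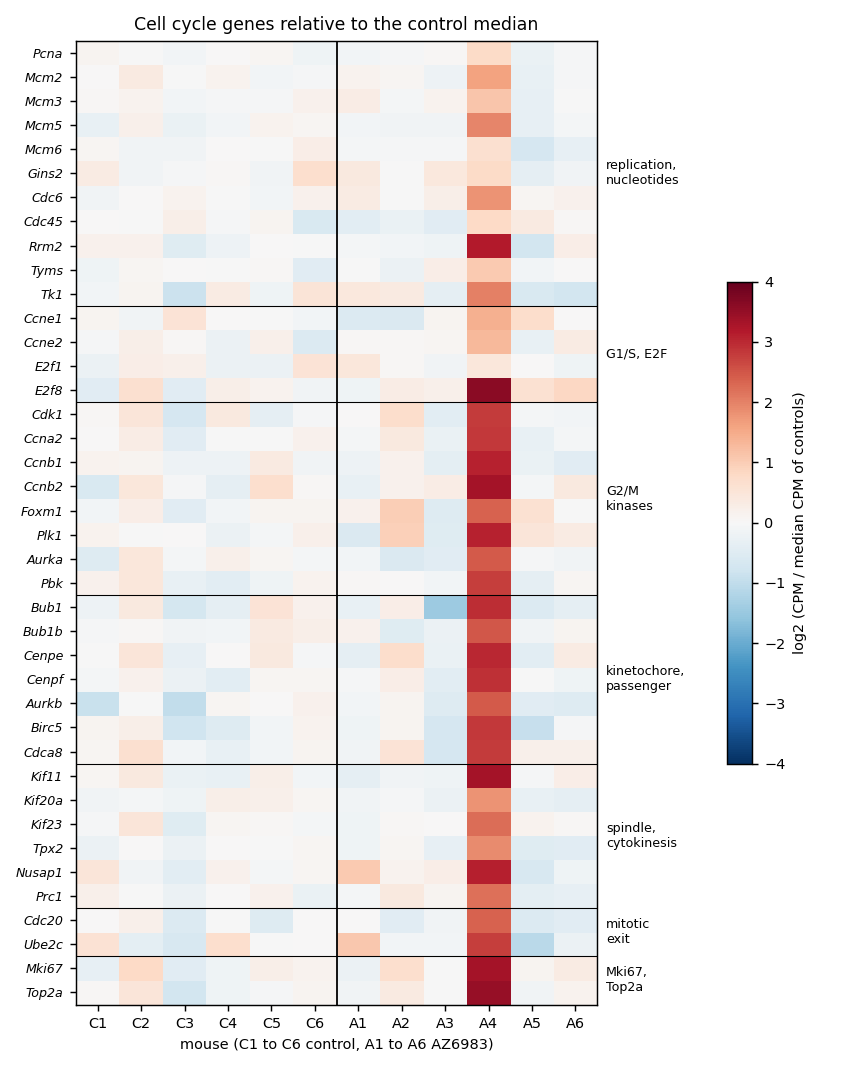
Level of the 40 genes (rows, by role) in each mouse (columns), as log2 of the ratio to the median CPM of the 6 controls. The column of A4 is the only dark red one, and it is palest in Mcm6 and E2f1, which were 1.63 and 1.36 times the median of the other AZ6983 mice in A4.

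In CPM, the proliferation markers Mki67 and Top2a had the largest differences between A4 and the other AZ6983 mice, with ratios of 9.44 and 11.4. Mki67 encodes Ki-67, a protein that coats mitotic chromosomes and is used to count cells in cycle (chr7, annotated on GRCm38). It ranged from 9.97 to 23.6 CPM in the controls (median 13.7) and from 11.7 to 21.8 CPM in the AZ6983 mice other than A4 (median 14.6), and was 138 CPM in A4. Top2a, the DNA topoisomerase that untangles copied chromosomes, ranged from 6.72 to 15.6 CPM (median 11.1) in the controls and from 10.1 to 14.2 CPM (median 11.01) in the AZ6983 mice other than A4, and was 125 CPM in A4. In both genes the AZ6983 mice other than A4 lay inside the range of the controls, and C2 and A2 were the highest of the remaining mice. The log2 fold change of Mki67 was 1.31 (SE 0.60, edgeR adjusted p = 0.487) with A4 and 0.11 (SE 0.22, adjusted p = 0.898) without. That of Top2a was 1.47 (SE 0.65, edgeR adjusted p = 0.482) with A4 and 0.05 (SE 0.17, adjusted p = 0.938) without. Together they made up 31.6% of the summed CPM of the 40 genes in A4, and 9.78% to 17.9% in the other 11 mice.

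**Figure D3:**
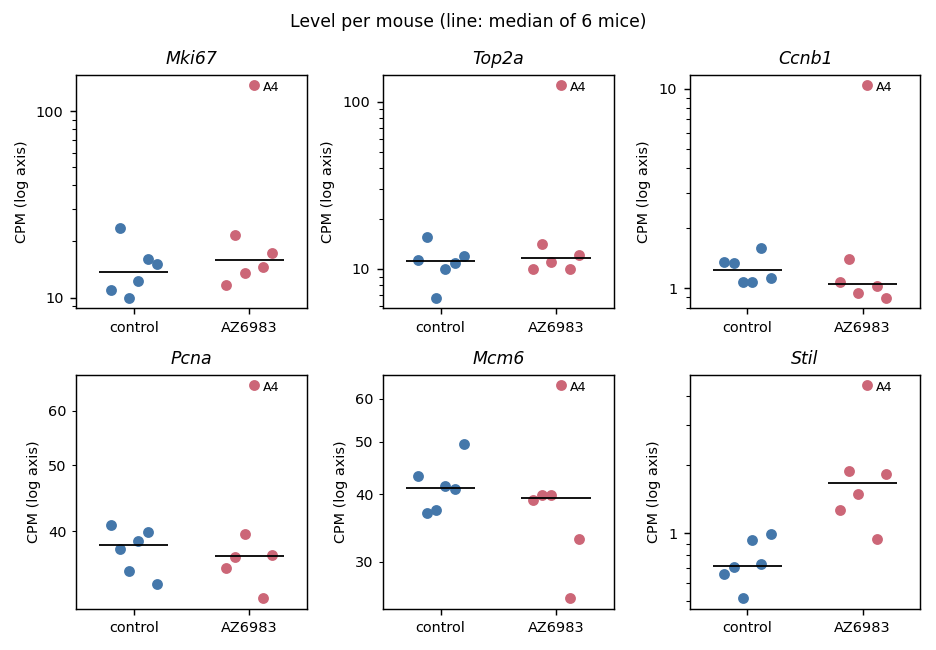
CPM (log axes) of Mki67, Top2a, Ccnb1, Pcna, Mcm6 and Stil in each mouse, with the median of each group of 6 as a line. A4 is the highest point in all 6 panels. On the log axes it lies farthest above the next mouse in Top2a (8.05 times) and least in Mcm6 (1.28 times). Stil is the panel in which the other AZ6983 mice also lie mostly above the controls.

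Among the 11 genes of DNA replication and nucleotide supply, 10 were higher with A4 and 2 without it, with median log2 fold changes of 0.31 and −0.09. Pcna, the clamp that holds DNA polymerase on its template, ranged from 33.5 to 40.8 CPM in the controls (median 38.2), from 32.0 to 39.7 in the AZ6983 mice other than A4 (median 36.7), and was 65.4 CPM in A4. Mcm6, a subunit of the MCM helicase that opens DNA at replication origins, ranged from 36.9 to 49.4 CPM (median 41.1) and from 25.7 to 39.8 (median 39.1), and was 63.5 in A4. Mcm3, another subunit of that helicase, ranged from 8.93 to 11.1 CPM (median 9.74) and from 7.80 to 11.8 (median 9.62), and was 20.8 in A4. In these 3 genes the groups overlapped apart from A4, and in Mcm6 the lowest mice were A5 and A6. The log2 fold change of Mcm6 was −0.05 (SE 0.17, edgeR adjusted p = 0.938) with A4 and −0.23 (SE 0.11, adjusted p = 0.555) without, which was the smallest adjusted p of the 40 genes in that comparison. Pcna had the narrowest interval without A4, at −0.22 to 0.10 around a log2 fold change of −0.06. Rrm2, the regulated subunit of ribonucleotide reductase that makes deoxynucleotides, stood out in this role with a level in A4 of 9.64 times the median of the other AZ6983 mice, while the role's median ratio was 2.16.

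Levels per kilobase of exon spread widely within the roles. Pcna had the highest control median of the 40 genes at 15.9 CPM per kilobase, followed by Mcm6 at 8.81, Mcm3 at 2.60 and Mki67 at 1.36, and E2f8 had the lowest at 0.0695. The replication gene Tk1, a thymidine kinase, lay at 0.204 and the mitotic kinase gene Cdk1 at 0.332 CPM per kilobase. Pcna and Mcm6 together made up 34.1% to 42.5% of the summed CPM of the 40 genes in the 11 mice and 15.5% in A4. The order of the genes differed between differences and ratios. The level in A4 exceeded the median of the other AZ6983 mice by 28.6 CPM in Pcna (ratio 1.78), 27.4 CPM in Cenpf (ratio 7.84) and 32.0 CPM in Kif11 (ratio 11.01), and over the 40 genes the difference ran from 0.787 CPM in E2f1 to 123 CPM in Mki67.

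All 4 of the G1/S cyclins and E2F factors were higher with A4, and 2 of the 4 without it. Ccne2, a cyclin E that drives entry into S phase with CDK2, ranged from 2.24 to 3.87 CPM in the controls (median 3.26), from 2.66 to 4.10 in the AZ6983 mice other than A4 (median 3.38), and was 7.93 CPM in A4. Ccne1, the other cyclin E, ranged from 1.03 to 1.66 CPM (median 1.13) and from 0.755 to 1.84 (median 1.16), and was 3.01 in A4. E2f1, the transcription activator that starts the replication programme, ranged from 1.81 to 3.13 CPM (median 2.14) and from 1.90 to 2.93 (median 2.17), and was 2.95 in A4, inside the range of the controls. The edgeR log2 fold change of E2f1 was 0.05 (SE 0.19, adjusted p = 0.935) with A4 and −0.02 (SE 0.18, adjusted p = 0.976) without. E2f8, a repressor of E2F targets that is made later in S phase, was by contrast 9.84 times the median of the other AZ6983 mice in A4, at 4.60 CPM, and had the smallest adjusted p of the 40 genes with A4 (0.46, edgeR log2 fold change 1.62, SE 0.65). Without A4 its log2 fold change was 0.34 (SE 0.26, adjusted p = 0.707).

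All 8 genes of the G2/M cyclins and kinases were higher with A4, at a median log2 fold change of 0.995, and 4 were higher and 4 lower without it, at a median of −0.02. Ccna2, cyclin A, ranged from 2.28 to 3.84 CPM in the controls (median 3.09), from 2.49 to 4.06 in the AZ6983 mice other than A4 (median 2.93), and was 22.2 CPM in A4. Cdk1, the kinase that drives mitosis, ranged from 1.03 to 2.29 CPM (median 1.64) and from 1.22 to 2.66 (median 1.55), and was 11.3 in A4. Ccnb1, cyclin B, the partner of Cdk1 in mitosis, ranged from 1.07 to 1.59 CPM (median 1.23) and from 0.895 to 1.40 (median 1.02), and was 10.4 in A4. The controls and the AZ6983 mice other than A4 overlapped in these 3 genes, and A4 was 7.26 to 10.2 times the median of the other AZ6983 mice. The edgeR log2 fold change of Ccnb1 was 1.07 (SE 0.61, adjusted p = 0.547) with A4 and −0.24 (SE 0.18, adjusted p = 0.692) without. Foxm1, the transcription factor of the mitotic genes, had the highest fold change of the 40 genes without A4, at 0.35 (SE 0.25, edgeR adjusted p = 0.682), and the highest of the 11 mice was A2 at 2.23 CPM.

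All 7 genes of the kinetochore, the spindle checkpoint and the chromosomal passenger complex were higher with A4, at a median log2 fold change of 0.96, and all 7 were lower without it, at a median of −0.07. Cenpf, a large kinetochore protein of G2 phase and mitosis, ranged from 3.09 to 4.59 CPM in the controls (median 4.11), from 3.06 to 4.89 in the AZ6983 mice other than A4 (median 4.01), and was 31.4 CPM in A4. Bub1b, which encodes the checkpoint protein BubR1, ranged from 3.55 to 5.03 CPM (median 3.90) and from 2.81 to 4.42 (median 3.51), and was 21.9 in A4. Cenpe, the kinesin that carries chromosomes to the spindle equator, ranged from 2.31 to 4.07 CPM (median 2.90) and from 2.17 to 4.68 (median 2.43), and was 23.4 in A4. None of the 7 lower values without A4 reached an unadjusted p under 0.05. Bub1, the checkpoint kinase, had the lowest fold change of the 40 genes there, at −0.42 (SE 0.31, edgeR adjusted p = 0.682), with 0.35 CPM in A3 as its lowest mouse.

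The 6 spindle and cytokinesis genes were all higher with A4, and 1 of the 6 without it. Kif11, the kinesin that pushes the spindle poles apart, ranged from 2.83 to 4.59 CPM in the controls (median 3.50), from 2.75 to 4.21 in the AZ6983 mice other than A4 (median 3.20), and was 35.2 CPM in A4. Tpx2, which activates Aurora A on the spindle, ranged from 3.90 to 4.86 CPM (median 4.63) and from 3.31 to 4.89 (median 3.68), and was 17.2 in A4. Nusap1, a microtubule protein of the spindle, ranged from 2.03 to 3.77 CPM (median 2.71) and from 1.76 to 5.57 (median 2.98), and was 23.2 in A4. Nusap1 was the gene of this role that was higher without A4, with A1 the highest of the 11 mice. Its edgeR log2 fold change was 1.23 (SE 0.57, adjusted p = 0.487) with A4 and 0.19 (SE 0.26, adjusted p = 0.832) without. Both genes of mitotic exit were higher with A4 and lower without it. Cdc20, the activator of the anaphase-promoting complex, ranged from 1.38 to 2.33 CPM (median 2.02) and from 1.39 to 2.04 (median 1.49), and was 10.3 in A4. Ube2c, the ubiquitin-conjugating enzyme of that complex, ranged from 0.724 to 1.79 CPM (median 1.13) and from 0.531 to 2.38 (median 1.04), was 7.69 in A4, and had the widest interval of the 40 genes without A4, at −0.82 to 0.74 on the log2 scale.

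The 21 genes not given with values by group had control medians of 0.378 to 6.61 CPM, and A4 was 1.73 to 9.99 times the median of the other AZ6983 mice in them. Their log2 fold changes were 0.09 to 1.62 with A4 and −0.42 to 0.35 without. Of the 40 genes, 12 had under 50 counts in each of the 11 mice, and the lowest count in any mouse was 8, so differences in these genes were measured with little precision. The exons of 13 of the 40 genes overlap a gene on the opposite strand, such as Nusap1 with Oip5, Cdc20 with Elovl1 and Ube2c with Tnnc2, a troponin gene of skeletal muscle, and those of Foxm1 and Top2a overlap another gene on the same strand. The strand setting of the counting is not given in the sources used here, so reads of the opposite-strand pairs cannot be told apart.

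Among the 11 mice, the median ratio of the highest to the lowest mouse was 1.93 over the 40 genes. C2 was the highest of the 11 in 11 of the 40 genes, among them Mki67, Top2a and Kif11, where it was the highest in 5.17% of all genes tested. C2 also had the highest B cell sum (30.3 CPM), and a thymocyte sum of 60.9 CPM, and the part of these cells in its levels was not tested. A2 was the highest in 8 of the 40, Cdk1, Ccna2 and Cenpf among them, against 14.4% of all genes tested. A5 was the lowest in 13 of the 40, against 22.4% of all genes tested, and its 10 most abundant genes took 30.2% of its counts.

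The thymocyte sum and the sum of the 40 genes were both highest in A4, at 42.3 and 4.39 times the median of the other AZ6983 mice. A6 had the next highest thymocyte sum, 82.0 CPM, and its 40 genes summed to 190 CPM, inside the range of the other 10 mice. C2 came next among the 11 mice with a thymocyte sum of 60.9 CPM, and its 40 genes had the highest sum of the 11, 219 CPM. The 13 thymocyte genes tested had a median log2 fold change of 3.31 with A4 and 0.15 without, and the 40 cell cycle genes 0.81 and −0.06. The neutrophil and macrophage sums of A4, 110 and 662 CPM, lay inside the range of the other mice (25.7 to 238 and 548 to 1135 CPM). How much of the A4 level of any of the 40 genes came from thymus was not tested.

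**Figure D4:**
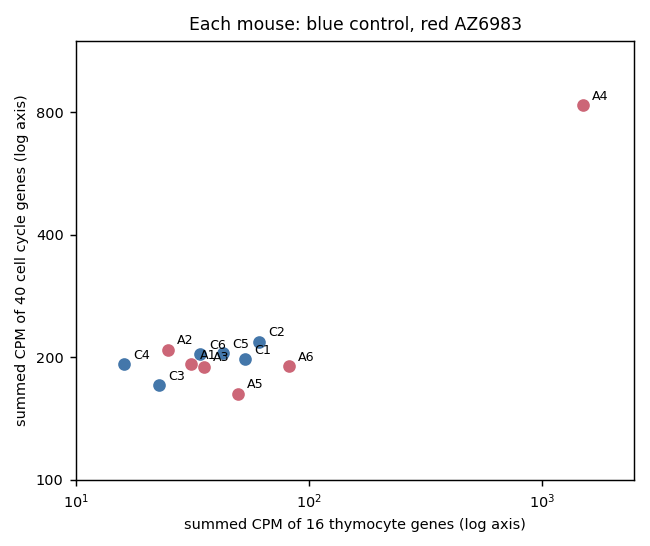
Summed CPM of the 40 cell cycle genes (y axis) against summed CPM of 16 thymocyte genes (x axis) in each mouse, both on log axes. A4 lies alone at 1504 and 833 CPM, and the other 11 mice lie at 16.1 to 82.0 and 163 to 219 CPM.

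By role, the ratio of A4 to the median of the other AZ6983 mice had a median of 2.16 in the replication genes and 2.47 in the G1/S genes. It was 7.04 in the G2/M kinases, 7.84 in the kinetochore genes, 4.74 in the spindle genes, 7.14 in the genes of mitotic exit and 10.4 in Mki67 and Top2a. The ranges overlapped, since Rrm2 and E2f8 were at 9.64 and 9.84 while Kif20a, a kinesin of cytokinesis, was at 4.06. These ratios rest on 1 mouse and have no replicate.

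Further cell cycle genes outside the 40 were split in a similar way with and without A4. Of 82 listed, 78 were tested, and 70 were higher and 8 lower in AZ6983 with A4, at a median log2 fold change of 0.61, while 27 were higher and 51 lower without it, at a median of −0.05. By edgeR's quasi-likelihood test none reached 10% FDR either way. At an unadjusted p under 0.05, 5 of the 78 were higher with A4 and 1 without it, and 0 were lower. Of all genes tested, 7.38% were higher at that level with A4 and 7.04% without it. The counts of this list were thus not above the share of all genes. A4 was the highest mouse in 71 of the 78. The list of G1 cyclins and kinases holds genes that are also made in cells out of cycle, among them Cdk7, Ccnh and Mnat1, which are not specific to G1. These genes lay closer to the other mice in A4, which was the highest mouse in 3 of the 9, against 15.4% of all genes tested. Of these 9 genes, which include the D cyclins, Cdk4 and Cdk6, none was over 2 times the median of the other AZ6983 mice in A4 (median ratio 1.13), 6 were higher and 3 lower in both comparisons, and none passed 10% FDR or an unadjusted p under 0.05. The CDK inhibitors, pocket proteins and quiescence genes, which hold cells out of cycle, numbered 19 tested, with 11 higher and 8 lower with A4, and 9 higher and 10 lower without it. At an unadjusted p under 0.05, 1 gene of this list was higher and 1 lower with A4, and 0 were higher and 1 lower without it. The shares of all genes tested that were lower at that level were 2.81% with A4 and 2.45% without it. The genes of this list are named after their values were seen. Cdkn2c, the inhibitor p18, was the higher gene, with a log2 fold change of 0.44 (SE 0.18, edgeR adjusted p = 0.466) with A4 and 0.35 (SE 0.19, adjusted p = 0.576) without. Cdkn1c, the inhibitor p57, was the lower gene in both comparisons. Its log2 fold change was −0.29 (SE 0.09, edgeR adjusted p = 0.447) with A4 and −0.28 (SE 0.09, adjusted p = 0.45) without.

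**Figure D5:**
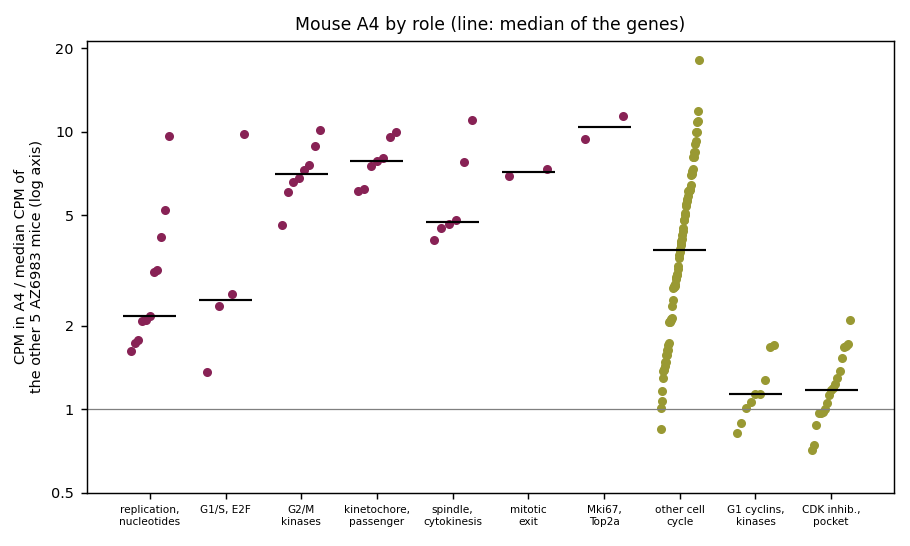
CPM in A4 divided by the median CPM of the other 5 AZ6983 mice (y axis, log scale) for each of the 40 genes by role and for the tested genes of 3 further lists, with the median of each set as a line. The medians run from 2.16 in replication to 10.4 in Mki67 and Top2a, and lie at 1.13 in the G1 cyclins and kinases.

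Stil, which encodes a scaffold protein of centriole duplication, was the 1 further cell cycle gene at an unadjusted p under 0.05 without A4. The study chose Stil on these same samples, so its direction is not independent evidence. It measured 0.663, 0.712, 0.517, 0.930, 0.728 and 0.986 CPM in C1 to C6, and 1.26, 1.87, 1.49, 0.940 and 1.83 CPM in A1, A2, A3, A5 and A6, with 4.47 CPM in A4. Only A5 among the AZ6983 mice lay inside the control range, which spanned 15 to 29 counts. The log2 fold change was 1.39 (SE 0.35, edgeR adjusted p = 0.447) with A4 and 0.96 (SE 0.22, adjusted p = 0.439) without. DESeq2 passed Stil at 10% FDR in both comparisons, with its defaults at adjusted p = 0.0673 with A4 and 0.0778 without, and over all settings the adjusted p ran from 0.0656 to 0.99983 with A4 and from 0.0776 to 0.99996 without. None of the 40 genes passed 10% FDR in any of the 22 fits with A4 or the 22 fits without it that tested them.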

How the data were processed

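Total RNA of whole thoracic aorta was depleted of ribosomal RNA and made into stranded libraries by the authors, who deposited raw counts per gene symbol. Their processing notes name CASAVA 1.8.2, STAR 2.5.2b, HTSeq 0.6.1p1 and mm10, and the annotation and strand setting are not given in the sources used here. Groups came from the labels. The column used for A1 holds part of its mouse number, and 11 columns match in full. No column was left unused (0), and 3 rows that name no gene were left out.

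AZ6983 was compared with control by the quasi-likelihood test of edgeR 4.0.16 (R 4.3.3, TMM, filterByExpr, treatment as the only term), for 12 mice and for 11 without A4, with Benjamini-Hochberg adjustment over all genes tested and the study's 10% FDR. Standard errors are the log2 fold change divided by the root of F. The fit was tested on simulated data. Log2 CPM used a prior count of 2. DESeq2 1.42.0, limma 3.58.1 (voom), other scalings and filters, a covariate and leaving out each mouse were the alternatives. Permutation tests used scipy 1.17.1, and tables pandas 2.3.3 in Python 3.11.15. Each role's 3 most abundant genes (mean CPM over the 12 mice) and any gene past 10% FDR are given with values, and of the further lists, genes past 10% FDR and Stil. That mean includes A4, so a high level in A4 counts toward the choice of a gene. The 40 genes and all lists were chosen with earlier results of these data known. Gene positions and exon lengths follow GENCODE M21. Every pair of libraries differed (chi-square per degree of freedom 12.0 to 226 over 66 pairs). The order numbers 1 to 12 in the column names are not explained, and controls hold 3 to 7 and 12.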

Additional observations from a re-analysis of the deposited data

Results flagged for a closer look

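Results were flagged where the highest or lowest of 6 mice lay far from the nearest of the others, with a gap above Dixon's 95% value for 6 samples. Chance flags about 1 in 20 groups. Of 106 groups of 6 mice examined, 35 were flagged, and in 30 of the 35 the mouse was A4, lying above the other AZ6983 mice. A4 was known to stand apart before this count, and the groups are not independent, since genes vary together and the sum of the 40 is itself a group, so the count is a description. Among the replication genes its log2 CPM was 6.03 for Pcna, 4.35 for Mcm2, 4.25 for Mcm5, 2.41 for Cdc6 and 4.62 for Rrm2, and among the G1/S genes 2.22 for E2f8. Among the G2/M genes it was 3.51 for Cdk1, 4.48 for Ccna2, 3.39 for Ccnb1, 3.27 for Ccnb2, 2.73 for Aurka and 2.63 for Pbk. The kinetochore and passenger genes were flagged at 2.91 for Bub1, 4.46 for Bub1b, 4.55 for Cenpe, 4.98 for Cenpf, 2.41 for Aurkb, 2.86 for Birc5 and 2.53 for Cdca8. The spindle genes were flagged at 5.14 for Kif11, 3.12 for Kif20a, 3.44 for Kif23, 4.11 for Tpx2 and 3.93 for Prc1, and Cdc20 at 3.37, Mki67 at 7.11 and Top2a at 6.97. The sums flagged in A4 were those of the 40 genes (log2 CPM 9.70), the thymocyte genes (10.55) and the thymic epithelium genes (7.34).

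The remaining 5 were other mice. Cdc45, one of the replication genes, was low in C6 (log2 CPM 1.599), and Ccne1 was high in C3 (0.79). The thymic epithelium sum was high in C4 (1.99), and the brown fat sum was low in C6 (11.30) among the controls and high in A5 (12.39) among the AZ6983 mice. In C4 the thymic epithelium sum came from Krt8 (2.38 CPM, the highest control) and Ccl25 (1.60 CPM, the lowest control). Foxn1, Psmb11, Prss16, Aire and Krt5 had 0 counts in C4.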

How the results depend on the processing

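No gene of the 40 that was tested was called at 10% FDR in any alternative, where DESeq2 with its defaults gave 17 of the 40 an adjusted p with 12 mice, and a filter at a mean of 50 counts left 28 with 12 mice and 22 with 11. With 12 mice the median log2 fold change was 0.44 by limma-voom and 0.21 with quality weights, and neither had any of the 40 at an unadjusted p under 0.05. Leaving out mice moved the median log2 fold change of the 40 genes from −0.0585 (without A4) to 0.96 (without A6) with 12 mice, and from −0.09 to −0.02 with 11. With the no-gene read share as covariate the median was −0.23 with 11 mice. Over all genes, where edgeR called 0, the calls at 12 and 11 mice were 92 and 67 by DESeq2 with its defaults, 84 and 68 by DESeq2 on the filtered genes, 2 and 1 when scaled by library total, and 4 and 1 by limma-voom with quality weights. Leaving out 1 mouse gave 0 to 27 calls from 12 mice (27 without A5, 1 each without A1 and C6) and 0 to 1 from 11.

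With 12 mice the fold change of Mcm6 turned to 0.0707 with the covariate. Of the 19 genes given with values, the ranges over left-out mice that crossed 0 were Pcna −0.0609 to 0.1659, Mcm3 −0.0093 to 0.3107, Mcm6 −0.2288 to 0.0324, Ccne1 −0.0699 to 0.4097, E2f1 −0.0247 to 0.1651, Ccna2 −0.0631 to 1.145, Ccnb1 −0.2424 to 1.245, Bub1b −0.1663 to 0.8607, Cenpe −0.0485 to 1.219, Cenpf −0.0105 to 1.281, Kif11 −0.1063 to 1.467, Tpx2 −0.1983 to 0.584, Cdc20 −0.1864 to 0.8728, Ube2c −0.0419 to 1.075, and the lowest value was the one without A4 in each. With 11 mice, with small fold changes, direction turned under the covariate for Mcm3 (0.0349), Ccne1 (0.16), Ccne2 (−0.082), Cdk1 (−0.32), Ube2c (0.62), Mki67 (−0.56) and Top2a (−0.29), under quality weights for Mcm3 (0.0336) and Cdk1 (−0.0031), and with a filter at a mean of 50 counts for Mcm3 (0.0022). Of the same 19, the ranges that crossed 0 were Mcm3 −0.0809 to 0.0521, Ccne1 −0.3169 to 0.0502, Ccne2 −0.0214 to 0.14, E2f1 −0.1397 to 0.072, Cdk1 −0.1655 to 0.1576, Ccna2 −0.1962 to 0.0046, Cenpe −0.2588 to 0.0441, Cenpf −0.1009 to 0.0534, Nusap1 −0.1052 to 0.3299, Ube2c −0.4452 to 0.132, Mki67 −0.036 to 0.293, Top2a −0.0558 to 0.1785. The cause was not tested. Stil is given because the study chose it on these same samples, so its choice rests on data already seen. No paired analysis was possible because the labels give no number shared between the groups. Genes under 50 counts, bulk tissue and thymocyte transcripts limit what these libraries can show of division in the vessel wall. The thymocyte sum was by far the highest in A4, and it was 16.1 to 82.0 CPM in the other 11 mice. The comparison without A4 was thus not free of these transcripts.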

Other observations

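Among the marker sums of other cell types, those of neutrophils and of endothelium had unadjusted p under 0.05 without A4, and neither passed 10% after adjustment. The summed CPM of 10 neutrophil and myeloid progenitor genes was 44.6 ± 12.6 in control and 116 ± 82.4 in AZ6983 without A4 (SD, n = 6 and 5, two-sided exact permutation p = 0.0303, adjusted p = 0.121 over 12 library measures). By edgeR 5 of its 6 tested genes were higher at an unadjusted p under 0.05, where 7.04% of all genes tested were. The sixth, Lcn2, was lower (log2 fold change −0.32). The study listed Ltf, Ngp and Camp as raised on these same samples, so their direction is not independent evidence. The endothelial sum was 1090 ± 66.8 in control and 1200 ± 67.7 CPM in AZ6983 without A4 (exact permutation p = 0.0238, adjusted p = 0.121). Of its 6 genes, 5 were higher and 1, Pecam1, lower, with means of 480 CPM in control and 459 CPM in AZ6983. Vwf had means of 266 and 360 CPM. The study listed Vwf as raised on these same samples, so the endothelial sum is not independent evidence. A3 and A6 held the highest neutrophil sums, 160 and 238 CPM, and their 40 cell cycle genes summed to 190 CPM each.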
